A study of Rattus norvegicus with 8 samples.

Results

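Mechanosensitive ion channels are the membrane pores through which a cell can read stretch, swelling and shear. A total of 10 genes for such channels were taken by symbol from the deposited expression table: Trpv4, Trpv2, Trpc1, Trpc6, Trpm7, Piezo1, Piezo2, Pkd1, Pkd2 and Kcnk2. They are 10 of the 15590 genes listed, and all 10 were found. The rule that picks them uses gene names only, but the list was drawn up with earlier results of these data known, so it is not a blind choice. Their mRNA was followed in Achilles tendons of WT (wild-type) rats that had either rested or just run. Each of the 2 groups held 4 libraries, which the labels number without saying which animals they came from, so the p-values measure the spread between these libraries. The naïve control rats (NC) did not run, and the rats of the other group (0 h p.r., post-running) were killed immediately after 1 h on a treadmill. Both groups were otherwise alike per the labels and methods: male Sprague-Dawley rats of 8 to 10 weeks, with tissue taken from the right leg. The treadmill was set to 20 m per min at an incline of 10 degrees. The labels have rats of both groups killed immediately, whereas the published design has the controls killed together with a later post-running group that is not analysed here.

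Channels that answer to force work in different ways. Piezo channels open directly when membrane tension rises. Channels of the transient receptor potential (TRP) family open to swelling, stretch, lipids or receptor signals and let calcium in. Polycystins sit in the primary cilium, an antenna-like organelle that tendon cells carry along their collagen fibres. Potassium channels such as Kcnk2 instead let potassium out on stretch and so pull the cell away from excitation. In tendon, calcium signals that follow stretch or fibre sliding are among the earliest known responses of the resident cells, the tenocytes. These channels respond through opening within fractions of a second, and the mRNA level measured here says nothing of channel activity.

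The expression values were FPKM, that is, sequenced fragments divided by gene length and by a scaling factor of each library. Levels can therefore be compared between genes. The scaling factors were not in proportion to the reads on listed genes. The number of reads behind each value was recovered from the steps between the FPKM values of a gene, and the libraries held 11350560 to 17897056 reads on listed genes. The tenocyte markers, among them the tendon transcription factor Scx and the membrane protein Tnmd, were detected in every library and summed to 6995 to 12450 FPKM in NC and 9642 to 20420 FPKM at 0 h p.r. The largest part of this sum was Dcn, at 3630 to 6746 FPKM in NC and 5212 to 14780 FPKM at 0 h p.r. The library of NC replicate 2 stood apart: it had the lowest depth, 22.6% of its reads came from mitochondrial genes against 8.87% to 13.2% in the others, and its long genes were low. For this reason the channel genes and the medians of the marker lists are also given without it. The tenocyte markers had a median log2 difference between groups of 0.07 (0.02 without NC replicate 2), with 7 of 10 above 0. The libraries of 0 h p.r. differed in their skeletal muscle markers: these summed to 33000 FPKM in replicate 1, 5656 in replicate 2, 15280 in replicate 3 and 1015 in replicate 4, against 4734 to 7487 FPKM in NC.

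None of the 10 channel genes passed both thresholds used for a call, which asked for a fold of 2 or more and an adjusted p under 0.05. All 10 passed the filter on low values (at least 0.5 FPKM in at least 4 of the 8 libraries), and the value of Kcnk2 in NC replicate 2 was the only one below 0.5 FPKM. Across all 13863 genes tested, 2.7% were called. No channel gene had an adjusted p under 0.05 at any fold, where 5.72% of all tested genes did. At an unadjusted p under 0.05 there were 3 of 10, Trpc1, Trpv4 and Trpc6, against 22.6% of all tested genes. The groups were fully separated, with all libraries of 0 h p.r. above all of NC, in 1 of 10 members, Trpc1, and in 8.15% of all tested genes. The test was limma's moderated linear model on log2(FPKM + 0.5), adjusted by Benjamini-Hochberg over all tested genes. With limma's voom on the recovered reads, 0 members were called and 1, Trpc1, had an adjusted p under 0.05.

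In direction, 9 of the 10 fold changes were above 0 and 1, that of Piezo2, was below. The median log2 fold change of the members was 0.38, beside -0.001 over all tested genes. Without NC replicate 2 the members' median was 0.18 and 7 of 10 lay above 0. All fold changes were computed after 0.5 FPKM had been added, so they are smaller than the plain ratios for genes of low level. Because whole tissue was sequenced, a higher value can come from more cells of a type or from more mRNA per cell, and these cannot be told apart.

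**Figure D1:**
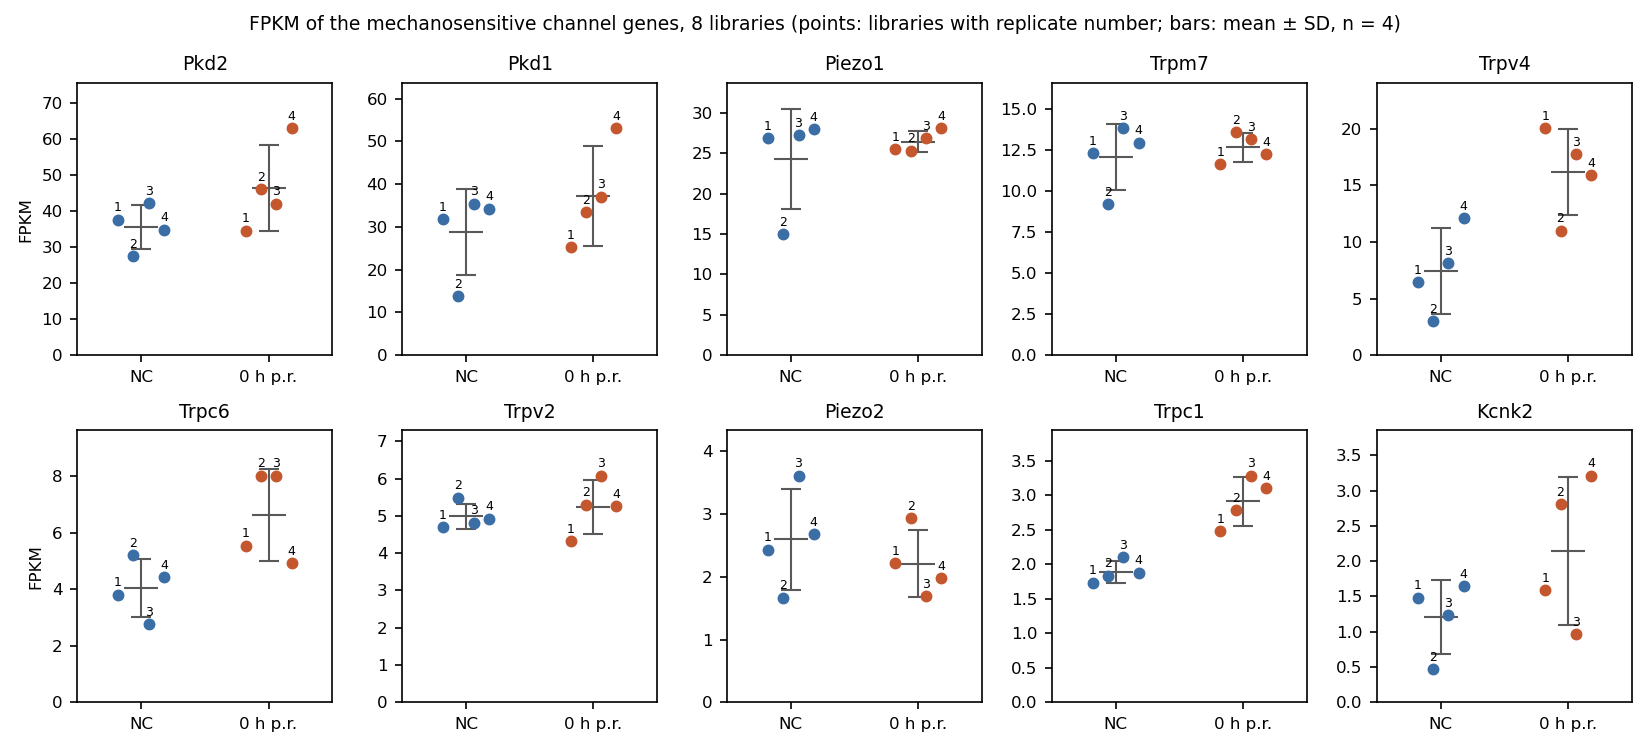
FPKM of each channel gene in the 4 NC libraries (blue) and the 4 libraries of 0 h p.r. (orange), with the replicate number above each point and bars for the mean ± SD. The groups are fully separated for Trpc1 alone, Trpv4 overlaps only between NC replicate 4 and 0 h p.r. replicate 2, and NC replicate 2 is the lowest point for 7 of the 10 genes.

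**Figure D2:**
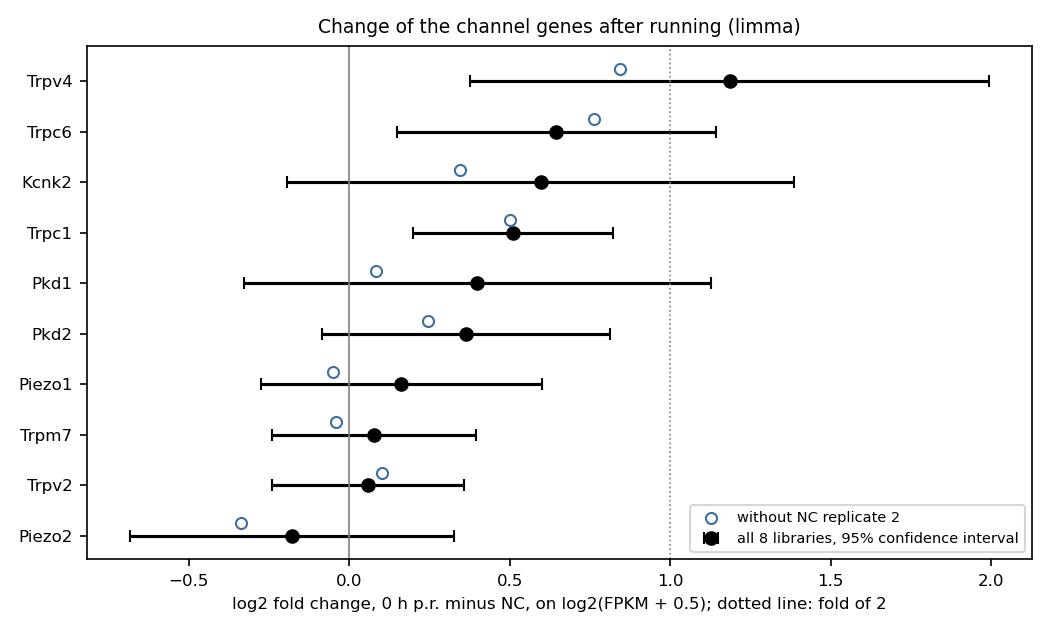
Log2 fold change of each channel gene, 0 h p.r. minus NC, with the 95% confidence interval of the limma model (black) and the value without NC replicate 2 (open circles). The intervals of Trpv4, Trpc6 and Trpc1 lie above 0, and leaving out NC replicate 2 lowers Trpv4 from 1.19 to 0.84 while Trpc1 stays near 0.50.

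Trpv4 showed the largest difference of the group. It encodes a calcium-permeable TRP channel of the vanilloid subfamily that opens on cell swelling and stretch and is abundant in cartilage cells. Its level was 6.46, 3.02, 8.11 and 12.1 FPKM in NC replicates 1 to 4, and 20.1, 11.02, 17.8 and 15.9 FPKM in the libraries of 0 h p.r. in the same order. The lowest library of 0 h p.r. lay just under the highest NC library, and the other 3 lay above all NC libraries. The means were 7.43 ± 3.78 FPKM in NC and 16.2 ± 3.84 FPKM at 0 h p.r. (SD, n = 4 each). The fitted fold, on log2(FPKM + 0.5), was 2.27, with a log2 difference of 1.19 (SE 0.36) and a 95% confidence interval for the fold of 1.299 to 3.979. By limma the unadjusted p was 0.00889 and the adjusted p was 0.0882, so the difference did not pass. When each library was left out in turn, the adjusted p ranged from 0.0521 to 0.201 and the log2 difference from 0.84 to 1.46, and no such fit gave a call. The value of 0.84 is that without NC replicate 2, the library with the fewest Trpv4 reads, 96 against 369 to 923 in the others.

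The promoter of Trpv4 is shown because this gene had the largest difference, and those of Pkd1 and Pkd2 because their products form 1 complex and their mRNAs were the most abundant of the group. The sequences are RefSeq windows of the GRCr8 assembly, 250 bases before to 50 after an annotated start, and are independent of the build used for the expression values. A window was found for 8 of the 10 genes. Capitals mark the GC box (GGGCGG, the core letters read by Sp1), the core of the cAMP response element (TGACG) and the CCAAT box (CCAAT), searched on both strands. In Pkd1 the CCAAT box overlaps the first GC box. The Trpv4 window is chr12:47598938-47599237 on the plus strand, that of Pkd1 is chr10:14078429-14078728 on the plus strand, and that of Pkd2 is chr14:5585091-5585390 on the minus strand.
Trpv4: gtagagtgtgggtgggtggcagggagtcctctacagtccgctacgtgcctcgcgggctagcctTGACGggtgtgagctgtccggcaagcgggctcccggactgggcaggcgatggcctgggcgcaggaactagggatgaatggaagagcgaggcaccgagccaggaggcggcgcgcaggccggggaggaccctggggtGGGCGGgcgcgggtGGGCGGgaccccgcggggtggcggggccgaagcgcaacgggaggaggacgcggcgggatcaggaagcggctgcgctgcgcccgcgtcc
Pkd1: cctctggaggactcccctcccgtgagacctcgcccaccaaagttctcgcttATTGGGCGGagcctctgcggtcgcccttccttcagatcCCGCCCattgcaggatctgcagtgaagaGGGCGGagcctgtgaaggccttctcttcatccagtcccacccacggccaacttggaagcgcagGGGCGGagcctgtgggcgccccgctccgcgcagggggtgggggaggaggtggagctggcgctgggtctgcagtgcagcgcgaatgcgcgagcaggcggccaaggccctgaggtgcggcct
Pkd2: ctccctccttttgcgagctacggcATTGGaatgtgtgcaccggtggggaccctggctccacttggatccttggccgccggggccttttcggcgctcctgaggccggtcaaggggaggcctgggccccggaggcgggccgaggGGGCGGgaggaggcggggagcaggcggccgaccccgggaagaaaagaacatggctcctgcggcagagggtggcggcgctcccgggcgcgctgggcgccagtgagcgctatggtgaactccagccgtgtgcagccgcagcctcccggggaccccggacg

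All 3 windows were rich in G and C, with 73.7% for Trpv4, 68.0% for Pkd1 and 72.3% for Pkd2, against a median of 51.7% over the 33469 promoter windows. The Trpv4 window held 2 GC boxes and 1 TGACG, that of Pkd1 held 4 GC boxes and 1 CCAAT, and that of Pkd2 held 1 GC box and 1 CCAAT. The Pkd2 window also held 1 match to the TEAD letters, GGAATG, found in 14.2% of all windows. It overlaps the CCAAT box and is not marked on its own. Letters for an E-box, the full cAMP response element, AP-1 and EGR were also searched, with no match in the 3 windows. Of all promoter windows, 33.1% held a GC box, 21.2% held TGACG and 37.5% held CCAAT. None of the 3 windows held the letters TATAAA, found in 14.2% of all. A match of letters describes the window and is not evidence that a factor binds there.

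Trpv2, of the same vanilloid subfamily, is a stretch- and heat-sensitive cation channel that is also known from macrophages. Its level was 4.71, 5.48, 4.82 and 4.92 FPKM in NC and 4.33, 5.30, 6.08 and 5.26 FPKM at 0 h p.r., so the groups overlapped throughout. The log2 difference was 0.06 with a 95% confidence interval of -0.24 to 0.36 (limma, adjusted p = 0.849), and it was 0.10 without NC replicate 2. The ratio of Trpv4 to Trpv2 was 1.52 ± 0.790 in NC and 3.17 ± 1.07 at 0 h p.r. (SD, n = 4 each), from 0.550 to 2.46 and from 2.08 to 4.63. The NC ratio was 1.84 ± 0.560 (SD, n = 3) without NC replicate 2. These ranges overlapped between the same pair of libraries as the Trpv4 level itself.

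Among the canonical TRP channels, Trpc1 was low in every library but had the smallest p of the group. Trpc1 contributes to calcium entry after receptor signals or emptied stores and usually joins other subunits. Its level was 1.74, 1.84, 2.104 and 1.88 FPKM in NC and 2.49, 2.79, 3.29 and 3.10 FPKM at 0 h p.r. Each library of 0 h p.r. was above each NC library, on 76 to 234 reads per library. The means were 1.89 ± 0.155 and 2.92 ± 0.354 FPKM (SD, n = 4 each), the log2 difference was 0.51 (SE 0.14) and the 95% confidence interval was 0.20 to 0.82. By limma the unadjusted p was 0.00473 and the adjusted p was 0.0637. NC replicate 2 did not set this value, since the log2 difference was 0.50 without it. The adjusted p did depend on the setting: it was 0.0438 with voom on the recovered reads, 0.0449 after quantile scaling and 0.0272 with array weights, and 0.0769 to 0.173 when each library was left out in turn. In every one of these settings the fold stayed under 2.

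Trpc6, a channel opened by diacylglycerol that is known from smooth muscle and kidney podocytes, was also higher at 0 h p.r. in most libraries. It read 3.82, 5.21, 2.78 and 4.43 FPKM in NC and 5.54, 8.03, 8.03 and 4.92 FPKM at 0 h p.r. The overlap came from NC replicate 2, the highest control for this gene, and 0 h p.r. replicate 4. The means were 4.06 ± 1.02 and 6.63 ± 1.63 FPKM (SD, n = 4 each), with a log2 difference of 0.65 (SE 0.22) and a 95% confidence interval of 0.15 to 1.14. By limma the unadjusted p was 0.0165 and the adjusted p was 0.122. Without NC replicate 2 the log2 difference was 0.76 (limma, adjusted p = 0.0884). The adjusted p was 0.0208 with array weights, which give less weight to libraries that vary more, and ranged from 0.0703 to 0.284 over the fits that left out 1 library. Trpc6 stood at 2.18 ± 0.631 times Trpc1 in NC and 2.29 ± 0.540 times at 0 h p.r. (SD, n = 4 each), so the proportion between them differed by less than the spread between libraries. The mural cell markers, genes of smooth muscle and pericytes, had a median log2 difference of 0.21 (0.16 without NC replicate 2) with 7 of 10 above 0. At an unadjusted p under 0.05 by limma there were 3: Acta2 lay above 0, at 0.44, and Mcam and Pdgfrb below, at -0.45 and -0.40. By limma or voom 0 were called. The part of mural cells in the Trpc6 values was not tested.

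Trpm7 joins a cation channel for magnesium, calcium and zinc to a kinase domain and is expressed in most cells. It was 12.3, 9.21, 13.8 and 13.0 FPKM in NC and 11.6, 13.6, 13.2 and 12.3 FPKM at 0 h p.r. Apart from NC replicate 2, the libraries of the groups were interleaved. The log2 difference was 0.08 with a 95% confidence interval of -0.24 to 0.40 (limma, adjusted p = 0.806), and it was -0.04 without NC replicate 2.

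Of the Piezo channels, Piezo1 was the abundant one. Piezo1 opens directly on membrane tension and is known to carry the calcium response of tenocytes to shear, and Piezo2 serves touch and proprioception in sensory neurons. Piezo1 was 26.9, 15.0, 27.3 and 27.99 FPKM in NC and 25.5, 25.3, 26.9 and 28.1 FPKM at 0 h p.r. Outside NC replicate 2 the libraries lay between 25.3 and 28.1 FPKM, and this gene had the smallest spread at 0 h p.r., a coefficient of variation of 4.90%. The log2 difference was 0.16 with a 95% confidence interval of -0.28 to 0.60 (limma, adjusted p = 0.690), and it turned to -0.05 without NC replicate 2.

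Piezo2 was the member whose fold change lay below 0. It read 2.43, 1.67, 3.61 and 2.68 FPKM in NC and 2.22, 2.94, 1.69 and 1.98 FPKM at 0 h p.r., with the lowest and the highest value both in NC. The log2 difference was -0.18 with a 95% confidence interval of -0.68 to 0.33 (limma, adjusted p = 0.703), and it was -0.34 without NC replicate 2 and -0.03 without NC replicate 3. Piezo1 stood at 9.51 ± 1.56 times Piezo2 in NC and 12.6 ± 3.19 times at 0 h p.r. (SD, n = 4 each), and the ranges of 7.55 to 11.1 and 8.62 to 15.9 overlapped. Schwann cell markers, as a sign of nerve in the tissue, had a median log2 difference of -0.20 (-0.12 without NC replicate 2) with 5 of 8 tested below 0, 1 at an unadjusted p under 0.05 and 0 called by limma or voom. Their part in the Piezo2 values was not tested.

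The polycystins were the most abundant members. Pkd1 encodes polycystin-1, a large receptor-like protein, and Pkd2 encodes polycystin-2, a TRP-family cation channel. The proteins join in the primary cilium, and mutations in either gene cause polycystic kidney disease. Pkd2 read 37.7, 27.5, 42.2 and 34.9 FPKM in NC and 34.6, 46.2, 42.1 and 63.1 FPKM at 0 h p.r. Pkd1 read 31.9, 13.9, 35.5 and 34.3 FPKM in NC and 25.3, 33.4, 37.1 and 53.1 FPKM at 0 h p.r. For both genes NC replicate 2 was the lowest library and 0 h p.r. replicate 4 the highest, and the other libraries overlapped between groups.

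The log2 difference of Pkd2 was 0.36 with a 95% confidence interval of -0.08 to 0.81 (limma, adjusted p = 0.322), and it was 0.25 without NC replicate 2, or 0.21 when 0 h p.r. replicate 4 was left out. That of Pkd1 was 0.40 with an interval of -0.33 to 1.13 (limma, adjusted p = 0.524), and it was 0.09 without NC replicate 2, or 0.21 when 0 h p.r. replicate 4 was left out. The ratio of Pkd1 to Pkd2 was 0.793 ± 0.204 in NC and 0.794 ± 0.0789 at 0 h p.r. (SD, n = 4 each). NC replicate 2 had the lowest ratio, 0.504, and the other 7 libraries lay between 0.723 and 0.983.

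Kcnk2, the stretch-activated tandem-pore potassium channel TREK-1, was the least abundant and among the most variable. It read 1.49, 0.472, 1.24 and 1.64 FPKM in NC and 1.59, 2.80, 0.965 and 3.21 FPKM at 0 h p.r. The lowest value rests on 17 reads in NC replicate 2, and the highest on 211 reads. Its coefficient of variation was 43.0% in NC and 48.7% at 0 h p.r., and only 0 h p.r. replicates 2 and 4 lay above all NC libraries. The log2 difference was 0.60 with a 95% confidence interval of -0.19 to 1.39 (limma, adjusted p = 0.362), and it was 0.35 without NC replicate 2, or 0.40 when 0 h p.r. replicate 4 was left out.

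By level, the order of the mean FPKM in NC was Pkd2, Pkd1, Piezo1, Trpm7, Trpv4, Trpv2, Trpc6, Piezo2, Trpc1 and Kcnk2, from 35.6 down to 1.21 FPKM. Between neighbours in this order, the ranges over the NC libraries did not overlap for Piezo1 and Trpm7 and for Trpc1 and Kcnk2, and they overlapped for all others. Within single libraries, Pkd2 was also above Pkd1, Trpm7 above Trpv4 and Trpv2 above Trpc6 in all 4 NC libraries. At 0 h p.r. the means ran from 46.5 FPKM for Pkd2 to 2.14 FPKM for Kcnk2. Trpv4 stood above Trpm7 there, at 16.2 ± 3.84 against 12.7 ± 0.891 FPKM (SD, n = 4 each), but their ranges overlapped. Trpc6 likewise stood above Trpv2, and Trpc1 above Piezo2, also with ranges that overlapped. The ranges of Piezo1 and Trpv4, of Trpm7 and Trpc6, and of Trpv2 and Trpc1 did not overlap at 0 h p.r. Over all 8 libraries Pkd2 lay at percentile 87.1 of the mean FPKM of the tested genes, Piezo1 at 79.1 and Kcnk2 at 14.0.

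The low values of NC replicate 2 went along with gene length. In the tested genes of 3482 to 29464 bases, the longest of 4 equal classes, the median gene lay 0.35 lower on the log2 scale in NC replicate 2 than in the mean of the other NC libraries. In the shortest class, 42 to 1376 bases, it lay 0.38 higher. The other 7 libraries moved by -0.15 to 0.15 against the rest of their group in any class. Of the 10 channel genes, 7 were in the longest class, and their median length was 4513.5 bases against 2217 over all tested genes. The lengths used by the authors ran from 2798 bases for Trpv2 to 13813 bases for Pkd1.

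In NC replicate 2, 8 of the 10 channel genes lay below the mean of the other NC libraries, by a median log2 difference of -0.56 over the members. In 0 h p.r. replicate 1 the count against its own group was also 8, with a median of -0.27. In NC replicate 2, Pkd1, the longest, lay at -1.26, and Trpv4, at 3211 bases 1 of the 3 shortest, at -1.37. In the class of 2218 to 3480 bases, which holds Trpv4, Trpc6 and Trpv2, the median tested gene lay at -0.06 in NC replicate 2. Trpc6 was higher there by 0.47 and Trpv2 by 0.17. The part of length in these values was not tested gene by gene. When the trend with length was removed from each library, an alternative added after the data were seen, the Trpv4 difference was 1.18 (limma, adjusted p = 0.0707), the Trpc1 difference was 0.48 (adjusted p = 0.0646) and the members' median was 0.32.

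**Figure D3:**
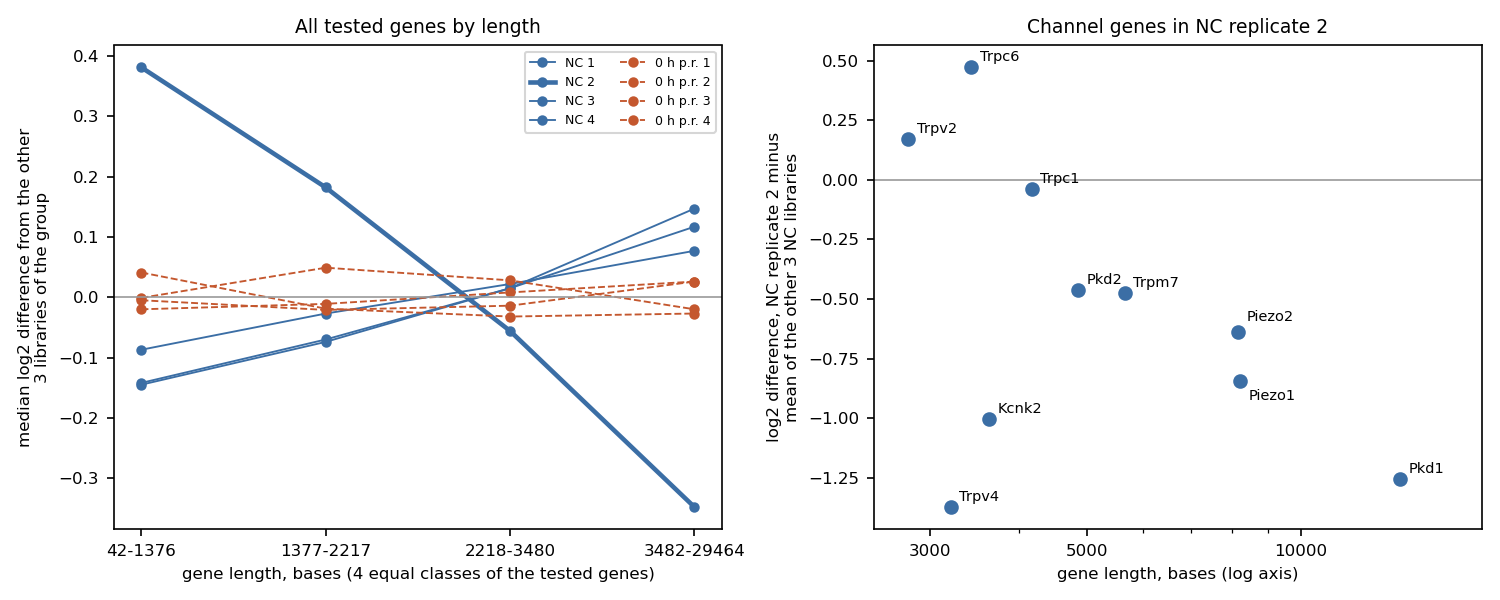
Left, the median log2 difference of each library from the other 3 libraries of its group, for the tested genes in 4 classes of gene length (bases), with NC in blue and 0 h p.r. in dashed orange. NC replicate 2 (thick line) falls from 0.38 to -0.35. Right, the log2 difference of each channel gene in NC replicate 2 from the other 3 NC libraries against its length on a log axis, from 0.47 for Trpc6 to -1.37 for Trpv4.

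Trpv4 is a gene that cartilage cells also express, so markers of other tissues are given beside it. Of the 9 cartilage markers tested, 8 had a fold change above 0, with a median log2 difference of 1.51, and 1, the cartilage collagen gene Col9a3, was called by limma and 1 by voom, with 6 at an unadjusted p under 0.05. Without NC replicate 2 the median was 1.25 and 0 were called. Their summed level was 1192 to 1681 FPKM in NC and 1739 to 4567 FPKM at 0 h p.r., of which Chad alone made 1136 to 1574 and 1558 to 4132 FPKM, so the sum mainly describes Chad. Col2a1, the defining collagen of cartilage, was above 0 in every library, at 0.934 FPKM in NC replicate 2 and 12.4 to 171.1 FPKM in the others, and Col10a1, which marks hypertrophic cartilage, was at 0 in NC replicate 2 alone. Of the bone markers 7 were tested, but Phex passed the low-value filter only through 0 h p.r. and is left out here. All 6 others lay above 0, with a median of 1.67 (1.32 without NC replicate 2), 4 at an unadjusted p under 0.05 and 0 called by limma or voom. The sum of all listed bone markers was 15.6 to 64.2 FPKM in NC and 58.8 to 199.7 FPKM at 0 h p.r., and Bglap, Sost and Sp7 were each at 0 in at least 1 library. Of the 10 adipocyte markers, 6 were called lower by limma and 7 by voom, 10 had an unadjusted p under 0.05, and the median was -1.72. Only 1 was called without NC replicate 2, at nearly the same median, -1.71. Their sums were 3241 to 6646 FPKM in NC and 1071 to 2401 FPKM at 0 h p.r. Endothelial and macrophage markers had medians of -0.03 and -0.05 (-0.09 and -0.01 without NC replicate 2) with 0 called by limma or voom, and 2 in each list at an unadjusted p under 0.05. Of the 2 endothelial ones, Egfl7 lay at 0.75 (limma, adjusted p = 0.0270), with all libraries of 0 h p.r. above all of NC. Its adjusted p was 0.0118 to 0.0950 when each library was left out. The other, Tek, lay at -0.32. The 2 macrophage ones were Cd163 at -1.09 and Cd14 at 0.52.

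Within NC, the libraries kept the same order for Trpv4 and for the mean log2 level of the cartilage markers, which was 2.09 in replicate 2, 3.24 in replicate 1, 4.02 in replicate 3 and 4.09 in replicate 4. Within 0 h p.r. they did not: replicate 4 had the highest cartilage mean, 5.75, at 15.9 FPKM of Trpv4, and replicate 1 the highest Trpv4, 20.1 FPKM, at a cartilage mean of 4.58. At nearly equal cartilage means, 4.03 in 0 h p.r. replicate 3 and 4.02 in NC replicate 3, Trpv4 was 17.8 and 8.11 FPKM, and the bone marker means, without Phex, were 2.80 and 1.57. NC replicate 4 was near 0 h p.r. replicate 3 in both, at a cartilage mean of 4.09 and a bone mean of 2.76, and had 12.1 FPKM of Trpv4. Replicate 1 of 0 h p.r., the highest in Trpv4, was also the highest in skeletal muscle markers, and replicate 4, the lowest in those, had 15.9 FPKM of Trpv4. Over the groups the 8 muscle markers tested had a median log2 difference of 0.73 (0.96 without NC replicate 2), with 6 above 0 and 0 called by limma or voom. The 1 with an unadjusted p under 0.05 lay below 0, Myh7 at -3.42, as did Mb at -1.12. The part of cartilage, bone or muscle tissue in the Trpv4 difference was not tested.

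**Figure D4:**
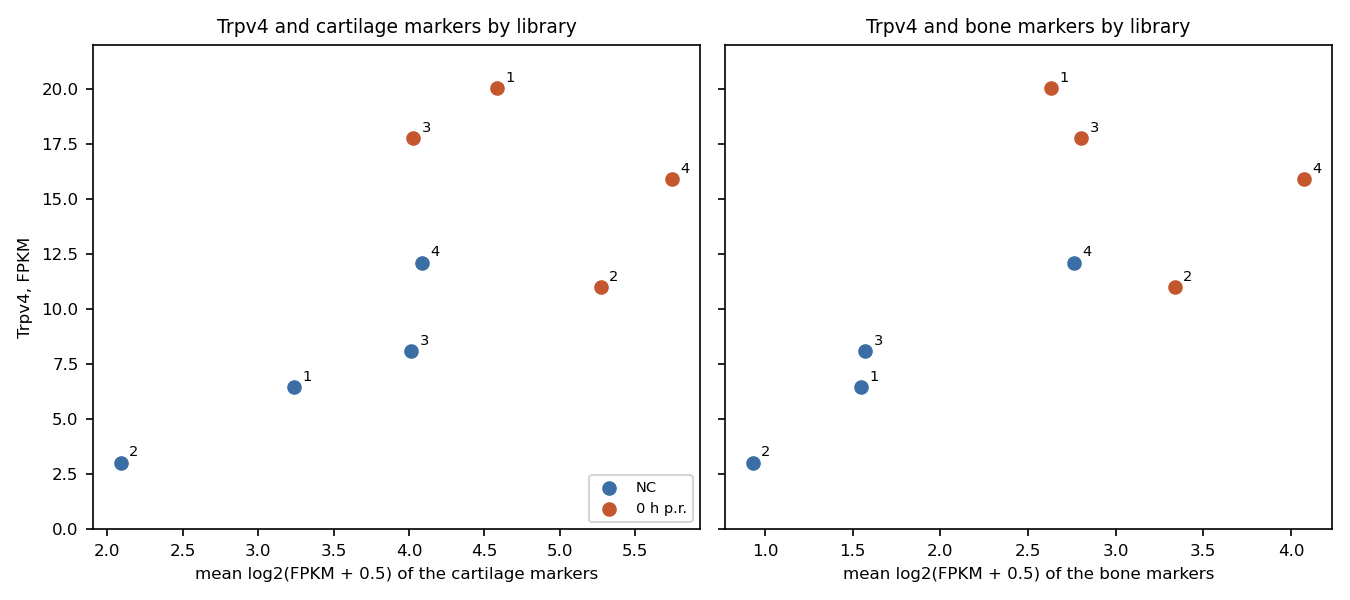
Trpv4 in FPKM against the mean log2(FPKM + 0.5) of the tested cartilage markers (left) and of the tested bone markers without Phex (right), 1 point per library with its replicate number, NC in blue and 0 h p.r. in orange. NC replicate 2 is lowest on every axis. NC replicate 3, NC replicate 4 and 0 h p.r. replicate 3 have cartilage means of 4.02, 4.09 and 4.03, with Trpv4 at 8.11, 12.1 and 17.8 FPKM.

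Related genes were taken from 6 lists of the same protein families and of the calcium pathway downstream. Of the other 22 TRP channel genes, 14 were listed, 7 were tested and 1 passed both thresholds, Mcoln2, a cation channel of endosomes and lysosomes. Mcoln2 read 0.197, 0.157, 0.159 and 0.391 FPKM in NC and 0.701, 1.13, 1.06 and 1.07 FPKM at 0 h p.r., so it passed the low-value filter only through the group in which it is high. It therefore had to differ once tested, and its values are given as a description with no test. Of the others tested, Trpv1, the capsaicin receptor, had a log2 difference of -0.41 (limma, adjusted p = 0.234) and was not called. Of 6 further genes of the polycystin-1 and fibrocystin families, 2, Pkd1l3 and Pkhd1l1 (fibrocystin-L), were tested and 0 called (0 at an unadjusted p under 0.05 and 0 called by voom), with the larger difference 0.13 for Pkd1l3.

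Among the 13 other tandem-pore potassium channels, 5 were listed, 3 tested and 1 called, Kcnk3 (TASK-1, an acid-sensitive background channel), which fell. Kcnk3 read 13.1, 8.37, 7.71 and 9.65 FPKM in NC and 3.17, 3.75, 4.85 and 6.64 FPKM at 0 h p.r., with no overlap between groups. Its log2 difference was -1.02 (SE 0.24; limma, adjusted p = 0.0410). It stayed called in 1 of 8 fits without 1 library, with adjusted p of 0.0148 to 0.122. Without NC replicate 2 the log2 difference was -1.08 and the adjusted p was 0.0611. Kcnk5 (TASK-2) had the largest difference of that list, 1.45 (limma, adjusted p = 0.200), with 18.6 FPKM in 0 h p.r. replicate 4 and 0.641 to 4.91 FPKM in the other libraries. The libraries of 0 h p.r. that were low in Kcnk3 were also low in the adipocyte markers given above, and the part of fat tissue in the Kcnk3 values was not tested. The difference between the responses of Kcnk2 and Kcnk3 was not tested.

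Of the 24 other stretch- or volume-sensitive channel genes, such as the Tmem63, Tmc, Lrrc8 and acid-sensing families, 12 were tested and 0 called, with a median log2 difference of 0.13 (0.03 without NC replicate 2). The largest absolute difference was -0.29 for Tmc8 (limma, adjusted p = 0.436). In this list, 0 genes had an unadjusted p under 0.05 and 0 were called by voom.

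Of the 22 genes for channel partners, 21 were tested and 0 called, with 9 fold changes above 0, 12 below and a median of -0.09. At an unadjusted p under 0.05 there were 6, and voom called 1. The largest difference was 0.99 for Homer1, a scaffold that links calcium channels at the membrane to internal stores (limma, adjusted p = 0.136). This turned on 1 library: the adjusted p was 0.00762 and the gene was called without 0 h p.r. replicate 4, and it reached 0.305 in the other fits that left out 1 library. Homer1 read 7.75, 5.66 and 6.94 FPKM in 0 h p.r. replicates 1 to 3 but 2.05 FPKM in replicate 4, within the NC range of 1.80 to 3.23 FPKM. This is also the library order of the skeletal muscle markers at 0 h p.r., and the part of muscle in the Homer1 values was not tested. Mdfi, a MyoD family inhibitor whose family members bind Piezo channels, was the 1 partner with an adjusted p under 0.05. Its level was 0.969 ± 0.211 FPKM in NC and 2.23 ± 0.438 FPKM at 0 h p.r. (SD, n = 4 each), a log2 difference of 0.89 (limma, adjusted p = 0.0272), with a fold under 2 on this scale. The adjusted p was 0.0394 to 0.0953 when each library was left out, the highest without 0 h p.r. replicate 2, and it was under 0.05 in 4 of these 8 fits. Its relative Mdfic had a log2 difference of -0.31 (limma, adjusted p = 0.137). The remaining partners at an unadjusted p under 0.05 were Cavin1 at -0.41, Homer3 at -0.48 and Stim2 at 0.33. Their adjusted p by limma was 0.118, 0.123 and 0.214.

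Of the 24 genes for the calcium response downstream, among them calmodulins, calcineurin subunits, NFAT factors and calcium pumps, 22 were tested and 0 called. Calm2 has 2 rows in the table, which made 23 tested rows, with 17 above 0 and a median of 0.30. Without NC replicate 2 the median was 0.19 and 14 lay above 0. At an unadjusted p under 0.05 there were 4, and voom called 0. Nfatc1, a transcription factor that calcineurin moves into the nucleus, was the 1 gene with an adjusted p under 0.05. It read 15.9, 10.4, 16.3 and 20.7 FPKM in NC and 26.8, 26.1, 26.8 and 25.5 FPKM at 0 h p.r. The log2 difference was 0.76 (limma, adjusted p = 0.0482), and the adjusted p ranged from 0.0328 to 0.127 when each library was left out. Without NC replicate 2, the lowest library, the difference was 0.57. Ppp3ca, a catalytic subunit of calcineurin, had a log2 difference of 0.63 (limma, adjusted p = 0.0530). The remaining genes at an unadjusted p under 0.05 were Atp2b1 at 0.55 and Rcan2 at -0.32 (limma, adjusted p = 0.0848 and 0.193). The other NFAT genes went both ways: Nfatc2 lay at 0.60, Nfat5 at 0.45, Nfatc3 at -0.25 and Nfatc4 at -0.07. Camk2a, a kinase that skeletal muscle also expresses, had the largest difference of the list, 0.77 (limma, adjusted p = 0.527). Camk2a read 16.2, 3.57, 9.59 and 1.24 FPKM at 0 h p.r. and 1.93 to 4.55 FPKM in NC. The order of the libraries of 0 h p.r. was that of the skeletal muscle markers. The mean log2 level of the whole calcium list had the same order there, 4.79 in replicate 1, 4.67 in replicate 3, 4.49 in replicate 2 and 4.36 in replicate 4. The part of muscle in these values was not tested.

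**Figure D5:**
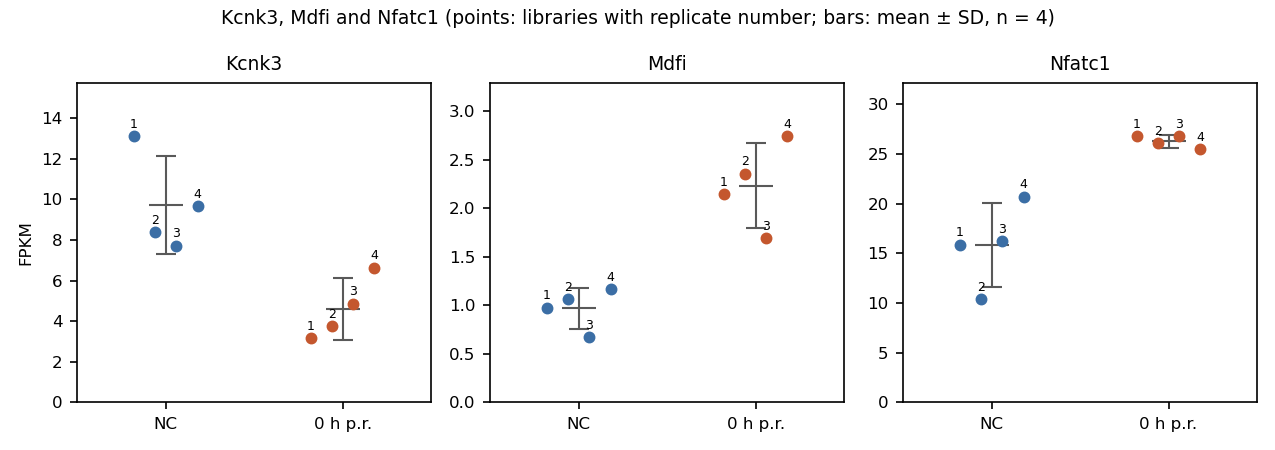
FPKM of the 3 related genes that reached the filter in both groups and had an adjusted p under 0.05, in NC (blue) and 0 h p.r. (orange), with replicate numbers and bars for the mean ± SD. Kcnk3 is lower while Mdfi and Nfatc1 are higher at 0 h p.r. The groups do not overlap in any of the 3, but the genes were chosen by p in these same libraries, so this adds no support.

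The genes whose profile over the 8 libraries lay nearest to each channel gene were found by the root mean square difference of the centred log2 values. For Trpv4 these were Mn1, a transcriptional regulator active in bone and face formation, at 0.295, AABR07030435.1 at 0.299 and Dusp8, a phosphatase of stress-activated kinases, at 0.301, against a median of 0.845 over all tested genes. Dusp8 went from 7.22 to 16.1 FPKM between the group means and Mn1 from 4.72 to 9.09 FPKM. The distance includes the difference between groups, so a change like that of the channel gene follows from how its nearest genes were picked. For Trpc1 the nearest were Lrrc1 at 0.064, the splicing regulator Tra2a at 0.085 and the co-chaperone Dnajc25 at 0.091, against a median of 0.397. For Piezo1 they were Zfp217, Kdm3b and Tut4 at 0.057, 0.059 and 0.062, and for Trpm7 Srrm1, Sec24c and Magi3 at 0.042, 0.047 and 0.051. For Piezo2 they were Bicd1, Dcaf17 and AABR07047011.1 at 0.108, 0.121 and 0.127, for Trpc6 Nop56, AABR07037356.1 and Batf at 0.097, 0.1 and 0.116, and for Trpv2 Dnajc10, Pdxdc1 and C1galt1c1 at 0.060, 0.061 and 0.068. For Pkd1 they were AABR07021547.1, Zfp385b and Sema3e at 0.136, 0.144 and 0.169. For Pkd2 they were Fbxo33 at 0.082 and AABR07019403.1 and the growth factor receptor Fgfr1 both at 0.109, the last with 56.0 FPKM in NC and 71.0 FPKM at 0 h p.r. For Kcnk2 they were LOC688583, Pcsk6 and Engase at 0.176, 0.204 and 0.212. The distances were largest for Trpv4 and smallest for Trpm7 among the 10 members. These distances describe 8 libraries that share depth, length effects and tissue makeup.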

How the data were processed

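RNA of 8 rat Achilles tendon libraries was compared, 4 of 0 h p.r. against 4 of NC, grouped by sample titles. Per the methods and the submitters' processing notes, polyadenylated RNA was captured, stranded libraries were aligned with HISAT2 2.1.0 to Rnor_6.0, reads and gene lengths came from featureCounts 1.6.3, and the authors deposited FPKM values per library. The authors also deposited log2 and p-value columns of their own comparison, made with DESeq2 1.30.1, which were not used. Members and gene lists were chosen with earlier results of these data known.

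Genes with at least 0.5 FPKM in at least 4 libraries were tested (13863 of 15590). Values were taken as log2(FPKM + 0.5) and fitted with limma 3.58.1 in R 4.3.3 (eBayes with trend, two-sided, no covariate, Benjamini-Hochberg). Calls needed an adjusted p under 0.05 and a fold of at least 2. Whole reads were recovered from the FPKM steps for 100% of 15590 genes (tolerance 0.02), and the recovery returned 99.4% of 2000 genes exactly when tested on simulated data. Gene lengths were recovered likewise and were whole for 99.8% of 10188 genes (tolerance 0.05 bases). Total reads per library limit the precision of low genes, and read numbers cover counting error only.

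All members were named. From each related list, the called genes and the gene with the largest absolute difference were named, and for each member the 3 nearest genes. Mdfi, Mdfic, Cavin1, Homer3, Stim2, Nfatc1 to Nfatc4, Nfat5, Ppp3ca, Atp2b1, Rcan2 and Trpv1 were named after their values were seen. So were the marker genes Dcn, Acta2, Mcam, Pdgfrb, Egfl7, Tek, Cd163 and Cd14. Alternatives were pseudocounts of 0.1 and 1, no filter, quantile scaling, median-ratio scaling, a filter on a mean FPKM of 2, a replicate block, array weights, protein-coding genes only, voom, and leaving out each library. The length correction was added after the data were seen. No genome of the files' build was used here, so no positions of the counted gene models are given. A result on 1 withheld item is not reported here.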

Additional observations from a re-analysis of the deposited data

Results flagged for a closer look

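Each of the 10 channel genes was examined in each group for a library far from the other 3, which made 20 groups. Chance alone would single out about 1 in 20 groups, and 2 were singled out, both in NC replicate 2. Piezo1 was 15.0 FPKM there, and its gap to the next library was 0.914 of the whole range of the NC libraries. Pkd1 was 13.9 FPKM there, with a gap of 0.835 of the range. Both exceeded Dixon's 95% critical value for 4 samples. Piezo1 (8203 bases) and Pkd1 (13813 bases) are the longest members, and NC replicate 2 was low in long genes as a whole. The part of gene length in these values was not tested gene by gene.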

How the results depend on the processing

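Under every alternative run, 0 of the 10 channel genes were called. The count of members with an adjusted p under 0.05 was 0 in the reported fit, 2 with array weights (Trpc1 and Trpc6), 1 after quantile scaling and 1 with voom (Trpc1 in both). In 3 members the log2 difference changed sign. Piezo1 was -0.026 with array weights and -0.049 (without NC replicate 2) to 0.243 when each library was left out, Trpm7 was -0.041 (without NC replicate 2) to 0.146, and Trpv2 was -0.008 (without 0 h p.r. replicate 3) to 0.141. The other members kept their sign in all fits, Kcnk2 in all but the filter on mean FPKM, which removed it. Of the related genes, 2 were called in the reported fit (Kcnk3, and Mcoln2, which passed the filter only through 0 h p.r.), 1 with a mean FPKM of at least 2, 0 with a pseudocount of 1, 4 by adjusted p alone, and 0 to 3 when each library was left out. Of all genes, 374 were called, 793 by adjusted p alone and 195 to 516 when each library was left out. With a replicate block the members called were 0, the related genes 0 and all genes 212, and the adjusted p was 0.0725 for Trpv4 and 0.163 for Trpc1. The replicate numbers did not pair the libraries: same-numbered deviations correlated at -0.141 to 0.0717, and no library correlated best with its own number. The lowest Kcnk2 value rests on 17 reads, so depth limits this gene most.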
